A study of Homo sapiens with 6 samples.

Results

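SWI/SNF chromatin remodelling complexes were followed through the transcripts of 10 subunit genes, out of the 25545 genes measured by RNA-seq. The genes were taken by name as SMARCA4, SMARCA2, SMARCC1, SMARCC2, SMARCB1, ARID1A, ARID1B, PBRM1, ARID2 and BRD7, and all 10 were found. The samples were BT-549 cells, a TNBC (triple-negative breast cancer) line in long-standing use, transfected for 48 h with a control siRNA (CsiRNA) or with an siRNA against the long noncoding RNA NEAT1 (NEAT1siRNA), with 3 libraries in each group. Both groups were grown in the same medium with serum and insulin, both received an siRNA, and the labels name 1 siRNA against NEAT1 and no untransfected cells. The sample titles write the line as BT-549/tet, a term that the labels do not explain. Only RNA was measured, so protein levels and the assembly of complexes were outside the reach of these data.

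SWI/SNF complexes use the energy of ATP to slide or evict nucleosomes, and so open chromatin at promoters and enhancers. Each complex is built on 1 ATPase, either SMARCA4 (BRG1) or SMARCA2 (BRM), with a core that includes SMARCC1, SMARCC2 and SMARCB1. The BAF form carries ARID1A or ARID1B, whereas the PBAF form carries ARID2, PBRM1 and BRD7. Genes for these subunits are often mutated in human tumors, and PBAF has been studied in TNBC cells as a partner of MUC1-C, the oncoprotein at the centre of the study. The question put to these data was whether cells with less NEAT1 held more or less of each subunit transcript.

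On GRCh38, by the GENCODE annotation, the ATPase genes lie at chr19:10960932-11079426 (SMARCA4) and chr9:1980290-2193624 (SMARCA2), both on the plus strand. Promoter sequence of this pair is shown because these were the interchangeable subunits whose transcript levels lay farthest apart. The stretches below were taken from the RefSeq promoter table (GRCh38.p14). They are the part of the 250 bases before the RefSeq start of each gene that no GENCODE exon covers, are written 5′ to 3′, and have the GC box letters GGGCGG, or CCGCCC when read on the other strand, in capitals. The first is chr19:10960780-10960931 and the second is chr9:2015097-2015185, both on the plus strand, and the second lies inside the longer GENCODE gene.
SMARCA4: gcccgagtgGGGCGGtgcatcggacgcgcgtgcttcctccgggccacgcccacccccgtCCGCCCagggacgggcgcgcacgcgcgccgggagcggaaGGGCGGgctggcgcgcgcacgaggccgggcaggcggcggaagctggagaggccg
SMARCA2: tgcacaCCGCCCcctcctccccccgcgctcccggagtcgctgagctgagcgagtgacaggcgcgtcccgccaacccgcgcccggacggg

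Over the full 250 bases, the SMARCA4 window was 82.4% G or C, with 44 CpG dinucleotides and 4 GC boxes, and the SMARCA2 window was 68.8% G or C, with 29 CpG dinucleotides and 2 GC boxes. Among 27305 promoters of the table, the median was 57.6% G or C and 10 CpG dinucleotides, and 42.2% held a GC box. GC boxes were also found for ARID1A (3) and BRD7 (3), and none for ARID1B, PBRM1 or SMARCB1. The E-box letters CACGTG, which read alike on both strands, were found in the window of PBRM1, where no GC box could overlap them, and in 6.46% of all promoters. ARID2, SMARCC1 and SMARCC2 had no promoter entry.

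Silencing was checked first. NEAT1 was at 13.4, 7.68 and 10.8 TPM (the share of a transcript in its library after correction for gene length) in the CsiRNA libraries and at 4.36, 2.96 and 2.73 TPM in the NEAT1siRNA libraries, or 31.5% of the control mean. The cells had the transcripts of a mesenchymal TNBC line, with VIM at 859 to 1112 TPM, CDH2 at 76.0 to 112.6 TPM and FN1 at 56.3 to 93.8 TPM. With NEAT1siRNA, FN1 was lower at 71.7% of its control mean (adjusted p of 0.00116 by limma), and CDH2 was at 79.1% (adjusted p of 0.0186). The CDH2 call was lost when any 1 of CsiRNA replicates 1 and 2 and NEAT1siRNA replicate 3 was left out (adjusted p of 0.0539 to 0.143). With no filter on TPM neither call held (adjusted p of 0.0515 for FN1 and 0.126 for CDH2 by limma). Of the epithelial markers, EPCAM, CDH1 and KRT8 stayed at or under 0.283 TPM and KRT18 was at 1.04 to 2.07 TPM, ESR1 was listed at 0 in all 6 libraries, PGR reached 0.00676 TPM and ERBB2 was at 5.76 to 6.36 TPM. Of the markers of other cell types, CD3E, VWF and HBB were listed at 0, PTPRC, PECAM1 and ALB stayed under 0.06 TPM, and CD68, a lysosomal protein gene that many cell types express, was at 23.2 to 29.2 TPM. Depth, recovered as described under the processing, was 15787496 to 20343387 reads per library. A set of 4 short noncoding RNAs took 64.4% to 68.1% of the TPM of a library, and all other genes together made up the rest. In such bulk libraries, fewer cells with a transcript and less of it per cell cannot be told apart. Among all 10721 genes tested with limma, 1498 or 14% were past an adjusted p of 0.05, of which 535 were higher and 963 lower with NEAT1siRNA.

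The 10 subunits were read at different levels, from 45.3 TPM for SMARCC1 to 0.543 TPM for SMARCA2 over the 6 libraries, an 83.5-fold range. ARID1A followed SMARCC1 at 40.1 TPM, and their ranges overlapped. SMARCA4 (25.4 TPM), BRD7 (23.7 TPM), PBRM1 (22.9 TPM) and SMARCC2 (22.4 TPM) formed a second tier, in which each overlapped the next. Below them came SMARCB1 (16.7 TPM), ARID1B (16.5 TPM) and ARID2 (13.1 TPM), again overlapping from one to the next. Only 3 steps in the order separated all libraries of neighbouring genes, namely ARID1A to SMARCA4, SMARCC2 to SMARCB1 and ARID2 to SMARCA2. Against all genes tested, the 9 subunits above 1 TPM lay between the percentiles 60.8 and 87.7. Together the 10 transcripts made up 207.6 to 244.3 TPM in a library.

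**Figure D1:**
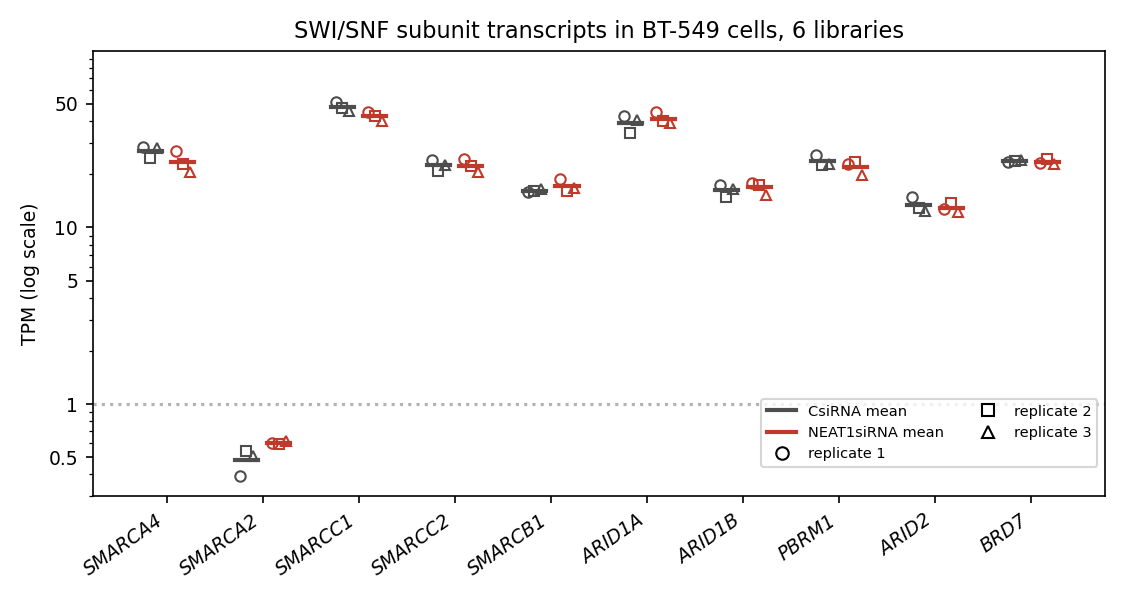
TPM of the 10 subunit transcripts on a log axis, with CsiRNA libraries in grey and NEAT1siRNA libraries in red, symbols for the replicate number and bars for the group means. SMARCA2 alone lies under the dotted line at 1 TPM, and for most genes the libraries of both groups interleave.

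For none of the 9 subunits tested did the difference between NEAT1siRNA and CsiRNA pass an adjusted p of 0.05 by limma, against the 14% of all genes for which it did. At an unadjusted p under 0.05 by limma the count was also 0 of 9, beside 2942 of all 10721 genes tested. This unadjusted count was not 0 in every limma fit. It was 2 of 9 with the replicate number as a block, beside 3194 of 10721 genes. Without the 4 short noncoding RNAs it was 1 of 9, beside 3608 of 10717 genes. With the trend on GC content and length removed it was 4 of 9, beside 4637 of 10424 genes. With voom on recovered reads the count was 0 of 9 at either threshold. Of all 10721 genes, voom gave 2470 at the adjusted and 3767 at the unadjusted threshold. The log2 fold changes, on the scale of log2(TPM + 1), ran from -0.20 for SMARCA4 to 0.08 for ARID1A, with a median of -0.02 beside -0.04 for all genes tested. Of the 9 values, 3 were above 0 and 6 below. In this fit the 95% confidence intervals of the 9 genes together spanned -0.41 to 0.28 on the log2 scale. A larger change of any 1 of them lay outside its interval in this fit. The intervals spanned -0.34 to 0.32 with voom. Their upper end was 0.37 without CsiRNA replicate 1, and their lower end was -0.53 without NEAT1siRNA replicate 1. Groups that did not overlap were seen for 1 of the 9, SMARCC1, and for 30.3% of all genes tested.

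The ATPases differed widely in level. SMARCA4, by far the more abundant ATPase transcript here, was at 28.6, 24.7 and 28.2 TPM with CsiRNA and at 27.2, 22.7 and 20.7 TPM with NEAT1siRNA. NEAT1siRNA replicates 2 and 3 were below all controls and replicate 1 lay among them. The log2 fold change was -0.20 (SE 0.10), with a 95% interval of -0.41 to 0.01 and an adjusted p of 0.195 by limma, the lowest among the subunits. This value depended on single libraries: the adjusted p was 0.0513 without NEAT1siRNA replicate 1 and 0.615 without NEAT1siRNA replicate 3, with log2 fold changes of -0.31 and -0.12.

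SMARCA2, the alternative ATPase, which is silenced in part of human tumor lines, was hardly present. Its values were 0.394, 0.541 and 0.507 TPM with CsiRNA, from 56, 78 and 89 reads, and 0.601, 0.593 and 0.621 TPM with NEAT1siRNA, from 92, 96 and 89 reads. All NEAT1siRNA values lay above all control values, and the NEAT1siRNA mean was 126% of the control mean. With a mean TPM under 1 the gene was not among those tested. With no filter on TPM the log2 fold change was 0.12 with an adjusted p of 0.240 by limma, and in a fit of recovered reads over genes with a mean of at least 10 reads, chosen after seeing the data, it was 0.39 (SE 0.17) with an adjusted p of 0.107 by voom. The pseudocount of 1 in the limma fit exceeds the level of the gene, and so understates its fold change. SMARCA2-AS1, on the other strand, overlaps 2.20% of the exonic bases.

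The core scaffold was made up of SMARCC1, SMARCC2 and SMARCB1. SMARCC1 (BAF155) was the most abundant subunit transcript, at 51.4, 47.1 and 45.8 TPM with CsiRNA and 45.0, 42.6 and 39.8 TPM with NEAT1siRNA. Every NEAT1siRNA value was under every control value, by a small margin. The NEAT1siRNA mean was 88.2% of the control mean, with a log2 fold change of -0.18 (SE 0.09), a 95% interval of -0.36 to 0.01 and an adjusted p of 0.208 by limma. SMARCC1 lies at chr3:47585269-47782106 on the minus strand, and no other annotated gene overlaps its exons.

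SMARCC2 (BAF170), the paralogue that pairs with SMARCC1 in the core, was at 24.0, 20.9 and 22.5 TPM and at 24.3, 22.1 and 20.6 TPM. The groups covered the same range, with a log2 fold change of -0.01, an interval of -0.20 to 0.19 and an adjusted p of 0.971 by limma. SMARCB1 (SNF5), the subunit lost in rhabdoid tumors, was at 16.0, 16.1 and 16.4 TPM and at 18.9, 16.1 and 16.7 TPM. One NEAT1siRNA library was above all others and the rest lay together, with a log2 fold change of 0.08, an interval of -0.11 to 0.27 and an adjusted p of 0.617 by limma. Leaving out that library (NEAT1siRNA replicate 1) gave 0.02, and leaving out NEAT1siRNA replicate 2 gave 0.13. Exons of genes on the other strand overlap 17.7% of the exonic bases of SMARCB1 (DERL3) and 7.83% of those of SMARCC2 (MYL6). The library kit keeps strand, but the strand setting of the count is not given in the sources used here.

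BAF-specific subunits came next. ARID1A, the DNA-binding subunit of BAF that is most often mutated in tumors, was at 42.5, 34.1 and 40.5 TPM with CsiRNA and at 44.8, 40.0 and 39.0 TPM with NEAT1siRNA. Its lowest library was CsiRNA replicate 2, and the others overlapped. The log2 fold change was 0.08 with an interval of -0.12 to 0.28 and an adjusted p of 0.632 by limma. ARID1B, which takes the place of ARID1A in part of the complexes, was at 17.4, 14.9 and 16.4 TPM and at 17.8, 17.4 and 15.3 TPM. CsiRNA replicate 2 was the lowest here too, and the log2 fold change was 0.05 with an interval of -0.15 to 0.24 and an adjusted p of 0.800 by limma. Without that library both fold changes were -0.01.

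PBAF-specific subunits showed the same overlap of groups. PBRM1 (BAF180), which reads acetylated histones through its bromodomains, was at 25.6, 22.6 and 22.8 TPM with CsiRNA and at 22.8, 23.4 and 19.9 TPM with NEAT1siRNA. The outermost libraries were CsiRNA replicate 1 at the top and NEAT1siRNA replicate 3 at the bottom. The log2 fold change was -0.10 with an interval of -0.30 to 0.10 and an adjusted p of 0.543 by limma. It was -0.05 without CsiRNA replicate 1 and -0.03 without NEAT1siRNA replicate 3. PBRM1 lies at chr3:52545352-52685917 on the minus strand.

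ARID2 (BAF200), the PBAF counterpart of ARID1A, was at 14.9, 12.9 and 12.4 TPM and at 12.6, 13.7 and 12.2 TPM. CsiRNA replicate 1 was the highest library, and the log2 fold change was -0.06 with an interval of -0.26 to 0.14 and an adjusted p of 0.748 by limma. BRD7, a further bromodomain subunit, varied least for its level, at 23.5, 23.8 and 24.2 TPM and at 23.3, 24.5 and 22.8 TPM. The log2 fold change was -0.02 with an interval of -0.20 to 0.17 and an adjusted p of 0.936 by limma. Exons of ADCY7 and of 1 more gene on the other strand overlap 41.9% of the exonic bases of BRD7, so its level is less certain than that of PBRM1 or ARID2 as long as the strand setting is not known.

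In some pairs of replicates, the differences of these subunits ran along with the base composition of the transcripts. From NEAT1siRNA replicate 1 to replicate 2, the log2 ratio of TPM was -0.26 for SMARCA4 (60.6% G or C) and -0.23 for SMARCB1 (59.6%), whereas it was 0.12 for ARID2 (40.5%) and 0.07 for BRD7 (43.5%). Across the 9 subunits, Spearman's rho between this difference and GC content was -0.93, and it was 0.82 for CsiRNA replicate 3 against replicate 2. These are the extremes of the 6 pairs of replicates within a group, and in the other 4 pairs it lay between -0.57 and 0.60. Each is a description of 9 genes in the same pair of libraries. Across 10424 genes, the deviation of a library from its group mean had a rho with GC content between -0.73 and 0.68.

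**Figure D2:**
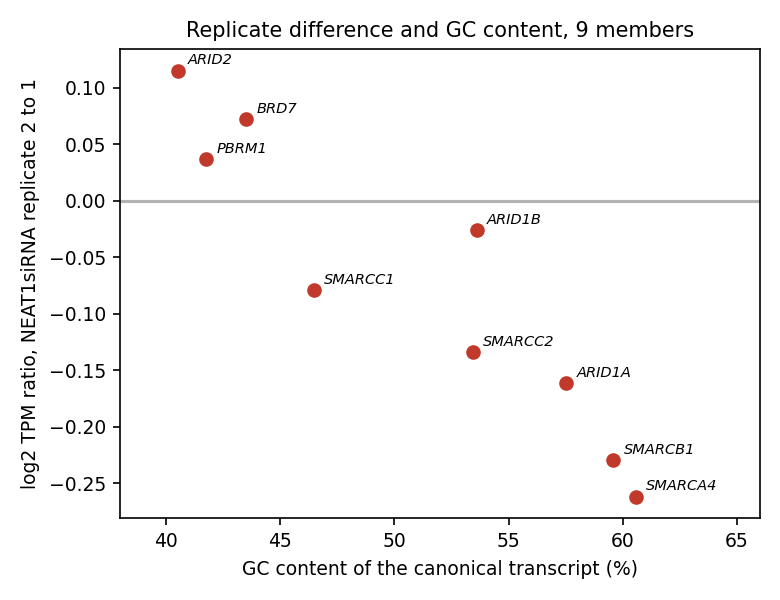
GC content of the canonical GENCODE transcript in percent on the x axis and the log2 ratio of TPM in NEAT1siRNA replicate 2 to replicate 1 on the y axis, with 1 point for each of 9 subunit genes. SMARCA4 and SMARCB1, richest in G and C, sit lowest at -0.26 and -0.23, and ARID2 sits highest at 0.12.

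The trend of each library on GC content and transcript length was then removed, a step that also recentred each library. Intervals narrowed, and ARID1A and ARID1B passed the threshold. ARID1A then had a log2 fold change of 0.18 (95% interval 0.07 to 0.28) with an adjusted p of 0.0158 by limma, and ARID1B had 0.18 (0.08 to 0.28) with an adjusted p of 0.0113. These were 2 of 9 called (22.2%), in a fit in which 33.3% of all genes were called. Both were higher, and 16.3% of all genes were called higher. SMARCA4 (-0.15, 95% interval -0.28 to -0.03) and SMARCB1 (0.14, 0.02 to 0.25) had intervals apart from 0 but adjusted p-values of 0.0575 and 0.0710 by limma. The log2 fold change of SMARCC1 shrank to -0.10 (-0.19 to 0.00), with an adjusted p of 0.115 by limma. For the PBAF subunits PBRM1, ARID2 and BRD7, the log2 fold changes were -0.05, -0.01 and 0.03, and the intervals together spanned -0.15 to 0.16. Median centring of the libraries alone gave log2 fold changes of 0.14 for ARID1A, 0.10 for ARID1B and -0.12 for SMARCC1. Neither ARID1A nor ARID1B was called there (adjusted p of 0.265 and 0.290 by limma). The roles of base composition, length and recentring in the difference between the fits were not tested beyond these values.

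**Figure D3:**
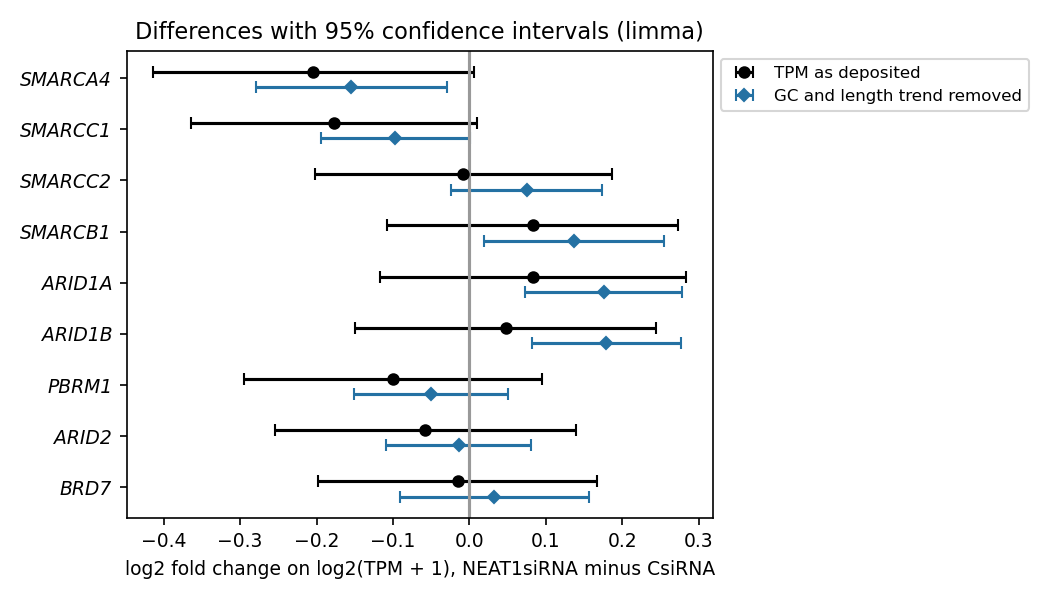
Log2 fold change of NEAT1siRNA against CsiRNA on the log2(TPM + 1) scale for the 9 subunits tested, with 95% confidence intervals from limma, for the TPM as deposited (black) and with the trend on GC content and length removed (blue). All black intervals cover 0, and the blue intervals of ARID1A, ARID1B and SMARCB1 lie above 0 and that of SMARCA4 below.

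Since complexes hold 1 of several alternative subunits, the balance of alternatives was compared within each library, where any scaling of the library as a whole cancels. SMARCA2 made up 1.36%, 2.14% and 1.77% of the summed TPM of both ATPases with CsiRNA and 2.16%, 2.54% and 2.91% with NEAT1siRNA. The groups did not overlap, by a margin that is small beside the spread within each group. The log2 ratio of SMARCA2 to SMARCA4 was higher by 0.56, with an exact two-sided permutation p of 0.1, the smallest that 3 libraries against 3 can give, and 0.2 after adjustment over the 4 ratios. SMARCA2 rests on few reads here, as given above, and the difference was 0.32 when 1 was added to each TPM. A trend on GC content does not cancel in such a ratio. The canonical transcripts were 48.8% G or C for SMARCA2 and 60.6% for SMARCA4. With its mean TPM under 1, SMARCA2 was not in the fit with that trend removed, so this ratio was not computed there.

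The share of SMARCC2 in SMARCC1 plus SMARCC2 was 31.8%, 30.7% and 32.9% with CsiRNA and 35.1%, 34.2% and 34.1% with NEAT1siRNA. These groups did not overlap either, with a log2 ratio higher by 0.17, an exact permutation p of 0.1 and an adjusted p of 0.2. ARID1B made up 29.1%, 30.4% and 28.9% of the ARID1 pair with CsiRNA and 28.4%, 30.3% and 28.1% with NEAT1siRNA. This balance overlapped between groups, with a difference of -0.03 in the log2 ratio and an exact permutation p of 0.5.

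Set against ARID1A plus ARID1B, the PBAF subunits PBRM1, ARID2 and BRD7 made up 51.6%, 54.8% and 51.1% of the summed TPM with CsiRNA and 48.5%, 51.7% and 50.3% with NEAT1siRNA. The difference in the log2 ratio was -0.14, with an exact permutation p of 0.3 and an adjusted p of 0.4. Leaving out CsiRNA replicate 2 gave a difference of -0.07, and leaving out NEAT1siRNA replicate 1 gave -0.09. It was -0.19 with an exact permutation p of 0.1 with the trend on GC content and length removed. No ratio could reach 0.05 in a design of this size.

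**Figure D4:**
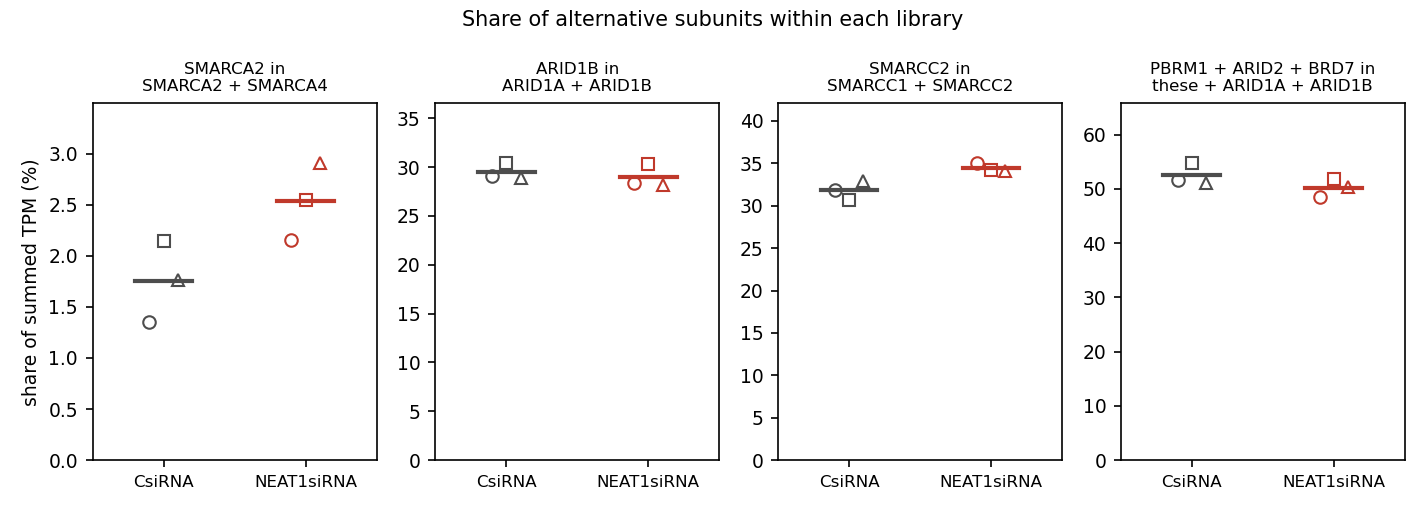
Share of summed TPM in percent, on axes that start at 0, of SMARCA2 in both ATPases, ARID1B in the ARID1 pair, SMARCC2 in the SMARCC pair, and PBRM1, ARID2 and BRD7 in these plus the ARID1 pair, for each CsiRNA (grey) and NEAT1siRNA (red) library, with bars for group means. SMARCA2 (1.36% to 2.91%) and SMARCC2 (30.7% to 35.1%) are the shares whose groups do not overlap.

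The remaining subunits of BAF, PBAF and the noncanonical form were read from a list of 19 genes, of which 18 were tested and 1 changed. DPF3, a plant homeodomain subunit known from heart and muscle, was at 2.98, 2.56 and 2.57 TPM with CsiRNA and at 1.87, 1.94 and 1.94 TPM with NEAT1siRNA. Its groups lay well apart, with a log2 fold change of -0.34 (SE 0.10) and an adjusted p of 0.0173 by limma. This 1 of 18 (5.56%) stands beside 14% of all genes called in either direction and 8.98% called lower. The call did not hold without CsiRNA replicate 1 (adjusted p of 0.0948), without NEAT1siRNA replicate 3 (0.0509), with no filter on TPM (0.0775) or with the trend on GC content and length removed (0.0541), all by limma, and voom on recovered reads gave 0.00355.

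Among the common accessory subunits, ACTL6A (45.6 to 55.0 TPM), an actin-related protein, SS18 (37.3 to 48.7 TPM), known from the fusion gene of synovial sarcoma, and the PBAF subunit PHF10 (46.1 to 53.7 TPM) were the highest after ACTB, which also makes up the cytoskeleton. ACTL6B, the neuronal counterpart of ACTL6A, was listed at 0 in all 6 libraries. SMARCE1, a core subunit, was read at only 1.06 to 1.85 TPM from a mean of 68.3 reads, and another annotated gene on the same strand overlaps 18.9% of its exonic bases. BCL7C had the largest positive fold change of the list, 0.22 with an adjusted p of 0.107 by limma. It was called higher with quantile normalization (0.0175), median centring (0.0153), without the 4 short noncoding RNAs (0.0264) and with the GC and length trend removed (0.0110), all by limma. With that trend removed, 4 of the 18 were called (22.2%), beside 33.3% of all genes. All 4 were higher, namely BCL7C, SMARCD3, SS18 and SS18L1, and DPF3 was not called. The median log2 fold change of the 18 genes was -0.05, and 0.01 with the trend removed.

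Genes of other chromatin remodelling families were set beside the SWI/SNF genes, from lists of ISWI, of CHD and NuRD, and of INO80, SRCAP and TIP60 genes. Of 49 genes 47 were tested and 6 changed, which is 12.8% beside 14% of all genes called in either direction. All 6 were lower, and among all genes 963 of 1498 calls were lower. The 47 genes had a median log2 fold change of -0.11. With the trend on GC content and length removed, 16 were called (34.0%), beside 33.3% of all genes. Of these 6 were higher and 10 lower, and the median of the list was 0.00. The calls split into 2 higher and 7 lower with quantile normalization and without the 4 short noncoding RNAs, 2 and 6 with median centring, and 3 and 8 with voom. In these fits 17.0% to 23.4% of the list was called, beside 19.5% to 23.0% of all genes. The 3 largest changes were those of ACTR5 (-0.46, SE 0.11, adjusted p of 0.00484 by limma), an INO80 subunit, CHD7 (-0.45, SE 0.10, adjusted p of 0.00405), the remodeller mutated in CHARGE syndrome, and TRRAP (-0.44, SE 0.11, adjusted p of 0.00982), a scaffold of TIP60. CHD7 fell from 8.78, 6.53 and 7.24 TPM with CsiRNA to 5.61, 5.21 and 4.78 TPM with NEAT1siRNA. The count fell to 1 without CsiRNA replicate 1 and to 3 without NEAT1siRNA replicate 3, and it was 10 without NEAT1siRNA replicate 2. Whether SWI/SNF genes differed from these families was not tested.

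**Figure D5:**
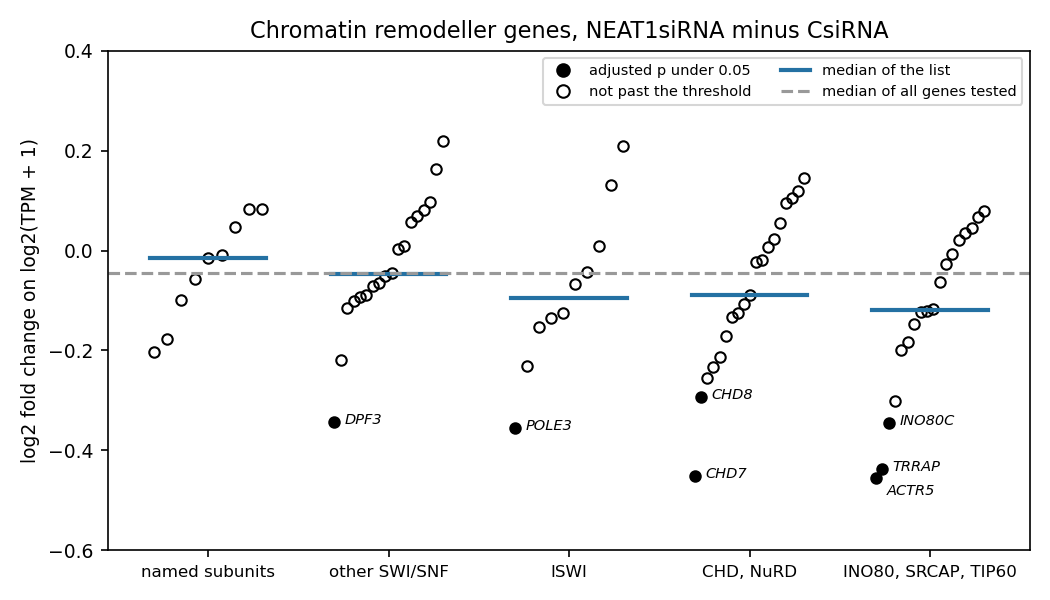
Log2 fold change of NEAT1siRNA against CsiRNA on the log2(TPM + 1) scale, 1 point per gene tested, for the 9 named SWI/SNF subunits, 18 other SWI/SNF subunits, and 3 lists of other remodellers, with blue bars for list medians and a dashed line for the median of all genes tested (-0.04). Filled points, past an adjusted p of 0.05, are DPF3, POLE3, CHD7, CHD8, INO80C, TRRAP and ACTR5, all under 0.

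Paraspeckle protein genes, whose products bind NEAT1, were read in the same libraries. SFPQ was at 80.5% of its control mean with NEAT1siRNA (adjusted p of 0.0205 by limma), while NONO was at 99.9% (adjusted p of 0.991). The SFPQ call did not hold without CsiRNA replicate 1 (adjusted p of 0.124 by limma), without NEAT1siRNA replicate 3 (0.160) or with no filter on TPM (0.0919). SMARCA4 and SMARCC1, the subunits with the lowest fold changes, were at 86.7% and 88.2% of their control means, and PBRM1 was at 93.1%.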

How the data were processed

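RNA-seq of 6 libraries was analysed, from cells the methods describe as cultured in triplicate. The authors made TruSeq Stranded mRNA libraries, aligned reads to GRCh38 with STAR and normalized gene counts with DESeq2; the counter and its strand setting are not given in the sources used here. The authors deposited TPM per gene and library, and a comparison table whose mean normalized count (a signal averaged over libraries) was used only to recover reads per gene. Its fold changes and p-values were not used. Where the mean normalized count was under 5 (5043 genes), 99.9% of recovered values lay no more than 0.05 from a whole read, and 12.6% in the class of most abundant genes, so reads of abundant genes are approximate. Read counts of replicates differed beyond sampling noise in all pairs (chi-square per degree of freedom of at least 4.58).

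Genes averaging 1 TPM or more were tested on log2(TPM + 1) with lmFit and eBayes (trend) of limma 3.58.1 in R 4.3.3, with Benjamini-Hochberg adjustment over 10721 genes and a threshold of 0.05. Ratios used exact two-sided permutation tests. Coordinates, GC content and length came from GENCODE by symbol, found for 10424 of the genes tested (97.2%). The trend was fitted with splines of 4 degrees of freedom and an intercept for each library. Figures and tables used Python 3.11.15. All 10 subunits are named, with other SWI/SNF genes past the threshold or at 0 and the 3 largest changes among other remodellers. BCL7C, SMARCD3, SS18L1, SMARCE1 and the abundant subunits ACTL6A, SS18, PHF10 and ACTB were named after their values were seen. The members and lists were chosen with earlier results of these data known. The results of some further genes are not reported here. The procedure was tested on simulated reads drawn independently for each gene and library, with no trend on GC content or length. That test therefore does not cover libraries with such trends.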

Additional observations from a re-analysis of the deposited data

How the results depend on the processing

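The count of 0 of 9 SWI/SNF subunits changed was obtained under 18 of 20 alternatives, and was 2 (ARID1A and ARID1B) with the GC and length trend removed, with or without the block. The 18 include an adjusted p under 0.01 and a log2 fold change of at least 0.5 in size. Both are stricter cuts on the same fit, so they could give only 0. For all genes, 1498 calls became 505 with no filter on TPM, 3468 with the trend removed (3390 with the block too), 2470 with voom on recovered reads, 719 at an adjusted p under 0.01, 314 with a log2 fold change of 0.5 or more in size, and 759 to 2083 with 1 library left out. Calls split into 535 higher and 963 lower, and into 1082 and 1109 with quantile normalization, 1158 and 954 with median centring, 918 and 1174 without the 4 short noncoding RNAs and 1271 and 1199 with voom, and the median of all genes stayed between -0.08 and 0.01. For other SWI/SNF genes, the 1 call became 0 with no filter, a mean TPM of at least 5 (which leaves DPF3 out), an adjusted p under 0.01 or a fold change of at least 0.5, became 2 with quantile normalization, median centring, without short RNAs or voom, became 4 others, all higher, with the trend removed with or without the block, and was 0 to 1 with 1 library left out. For other remodellers, 6 became 1 with no filter, 16 (6 higher) with the trend removed with or without the block, 11 with voom, 0 at a fold change of at least 0.5, and 1 to 10 with 1 library left out.

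Directions that reversed were those of values near 0. The log2 fold change of SMARCC2 was 0.0387 with quantile normalization, 0.0486 with median centring, 0.0233 without short RNAs, 0.0748 with the trend removed (with or without the block), 0.0498 with voom and 0.0441 with voom over genes of at least 10 reads, and ran from -0.0678 to 0.0465 with 1 library left out. That of BRD7 was 0.0314, 0.0414, 0.0160, 0.0325, 0.0419 and 0.0362 in that order, and ran from -0.0433 to 0.00552 with 1 library left out. Leaving out 1 library, ARID1A ran from -0.00904 to 0.146, ARID1B from -0.00986 to 0.111 and ARID2 from -0.108 to 0.0150. The difference in the log2 ratio of ARID1B to ARID1A was 0.00983 with the trend removed. The cause of these changes was not tested.

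Deviations of same-numbered samples correlated at -0.03, 0.25 and -0.11, and not every sample correlated best with its own number. The deviations still held the trends on GC content, so they cannot tell whether same-numbered samples were handled together. With the replicate number as a block, 1640 genes and 0 of 9 subunits were called. With 3 libraries a group, changes of the subunits inside their intervals were not excluded.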
